A study of Mus musculus with 6 samples.

Results

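NF-kappaB is a family of transcription factors that is held inactive in the cytoplasm by inhibitor proteins and released when receptors of innate immunity signal. The liver responds to it in hepatocytes and in resident macrophages, and the system is known for its feedback, because NF-kappaB induces several of its own inhibitors. The 10 genes described here encode 4 subunits (Rela, Nfkb1, Nfkb2 and Relb), 3 cytoplasmic inhibitors of the IkB family (Nfkbia, Nfkbib and Nfkbie), a pair of nuclear IkB proteins (Nfkbiz and Bcl3) and the feedback enzyme gene Tnfaip3. They were chosen by name, with earlier results of these data known. All 10 were found among the 23284 genes counted and passed the filter on low counts.

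Liver RNA from 6 male C57BL/6 mice was sequenced, with 3 mice given vehicle and 3 given FGF19 at 1 mg/kg. FGF19 is the human counterpart of the mouse gut hormone FGF15, and no group received another protein. All mice, aged 8 weeks, went without food overnight before treatment and were kept without food for the 6 h of treatment. The comparison asks which hepatic mRNAs differ between FGF19-treated and vehicle-treated mice.

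The libraries held between 18994654 and 22920056 counts. Levels are given as CPM, the counts scaled to a common library size after TMM normalization. Where a gene had no counts, its level could still be as high as 3 counts, or 0.136 to 0.159 CPM, if counts were independent. Mates were counted as separate reads, so the true bound could be higher, and it covers counting error only. Hepatocyte markers summed to between 93295 and 104013 CPM in the 6 livers. With edgeR's quasi-likelihood test on 12559 genes, 4.56% were higher and 2.84% lower after FGF19 treatment at an adjusted p under 0.05. FGF19 replicate 3 stood somewhat apart, since 930 genes were called with it and 1941 without it.

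Of the 10 NF-kappaB genes, 1, Nfkbie, rose after FGF19 treatment and 0 fell at an adjusted p under 0.05 by the edgeR quasi-likelihood method. DESeq2 and limma-voom gave the same counts of 1 and 0. Among all genes tested, edgeR called 4.56% higher and 2.84% lower at that threshold. At an unadjusted p under 0.05 there were 2 higher and 2 lower genes of the 10, beside 11.6% higher and 11.3% lower among all genes tested. At the study's threshold of an unadjusted p under 0.01, Nfkbie and Nfkbib were higher, 2 of 10 beside 6.20% of all genes tested, and 0 of 10 were lower beside 4.98%. The libraries of the groups did not overlap in 5 of the 10 genes, 3 higher (Rela, Nfkbib and Nfkbie) beside 14.5% of all genes and 2 lower (Nfkb2 and Relb) beside 13.8%. Log2 fold changes ran from -0.81 for Tnfaip3 to 0.85 for Nfkbie, with a median of 0.0025, where the median of all genes was -0.00076. Because whole liver was sequenced, fewer cells of a type and less RNA per cell cannot be told apart.

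**Figure D1:**
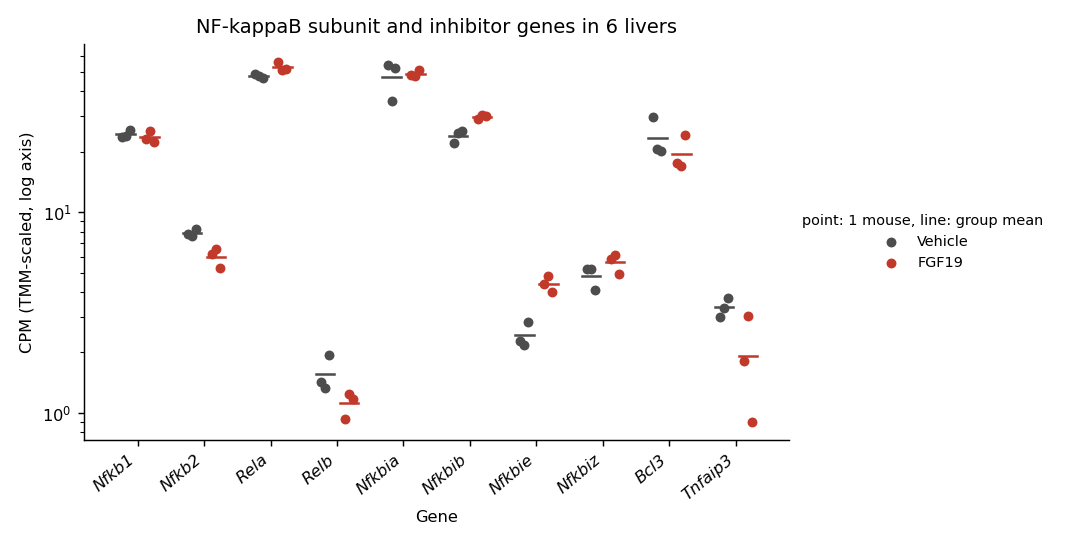
Level of each NF-kappaB gene in every liver, in CPM on a log axis, with 1 point for each mouse and a line at the group mean. The FGF19 points of Nfkbie, between 3.98 and 4.78 CPM, lie above all vehicle points, whereas those of Nfkb1, Nfkbia, Nfkbiz, Bcl3 and Tnfaip3 overlap them.

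Nfkbie encodes IkB epsilon, an inhibitor known for a late phase of negative feedback, and lies at chr17:45692665-45700117 of mm9 on the plus strand. It was at 2.29, 2.17 and 2.83 CPM in vehicle replicates 1, 2 and 3 and at 4.37, 4.78 and 3.98 CPM in FGF19 replicates 1, 2 and 3. All 3 FGF19-treated mice were above every vehicle-treated mouse. The raw counts behind these levels were low, between 41 and 57 with vehicle and between 88 and 104 with FGF19. Group means were 2.43 ± 0.351 with vehicle and 4.38 ± 0.398 CPM with FGF19 (SD, n = 3 each), a rise of 1.80-fold (log2 fold change 0.85, standard error 0.18, adjusted p = 0.0235 by edgeR). The call was not kept in every fit that left a library out. Over all genes, calls also fell, from 930 to between 343 and 600, when any library other than FGF19 replicate 3 was left out. They rose to 1941 without FGF19 replicate 3. For Nfkbie the values were as follows. Without vehicle replicate 1, 2 or 3 the adjusted p was 0.0798, 0.0763 and 0.0508, without FGF19 replicate 1 or 2 it was 0.0809 and 0.0980, and without FGF19 replicate 3 it was 0.0178 in the same edgeR test, with log2 fold changes between 0.77 and 0.97.

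Nfkbib encodes IkB beta, which holds subunits in the cytoplasm for longer than IkB alpha does, and lies at chr7:29543270-29551543 of mm9 on the minus strand. Its levels were 22.0, 24.6 and 25.4 CPM with vehicle and 29.1, 30.5 and 29.97 CPM with FGF19. The groups did not overlap, and the 3 FGF19-treated mice lay close together. The log2 fold change was 0.31 (95% interval 0.11 to 0.52), and edgeR's adjusted p of 0.0769 missed the threshold of 0.05. Of its exon bases, 310 of 1945 are shared with Gm6537, where the authors' counting assigns no read to either gene.

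Nfkbia encodes IkB alpha, the inhibitor that is broken down and resynthesized fastest, and lies at chr12:56590396-56593634 of mm9 on the minus strand. Vehicle replicates 1, 2 and 3 were at 54.0, 35.7 and 51.9 CPM and FGF19 replicates 1, 2 and 3 at 48.0, 47.4 and 51.2 CPM. Vehicle replicate 2 was the lowest of the 6 livers, and all FGF19-treated mice lay within the range of the vehicle-treated mice. The log2 fold change was 0.05 (95% interval -0.28 to 0.37, adjusted p = 0.880 in edgeR's quasi-likelihood test), an interval that includes changes of up to 1.29-fold. Without vehicle replicate 2 the log2 fold change was -0.12.

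**Figure D2:**
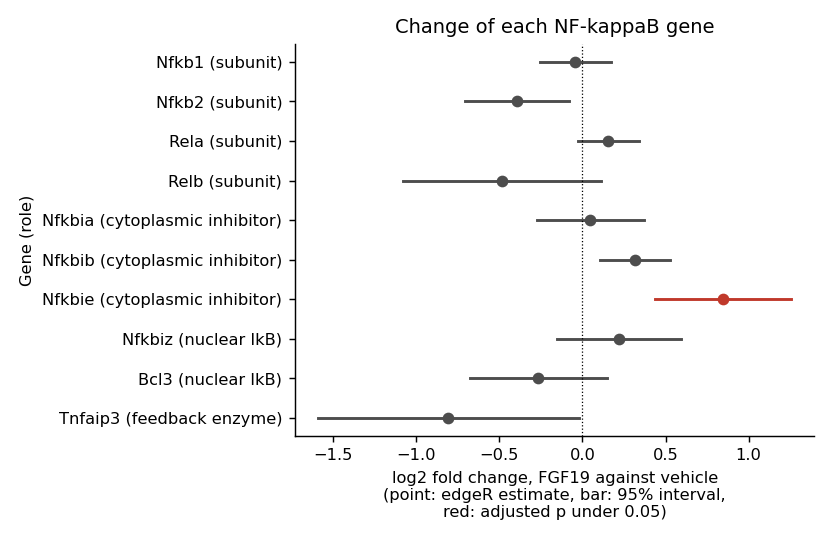
Log2 fold change of FGF19 against vehicle for each NF-kappaB gene, with its role in parentheses, the edgeR estimate as a point and its 95% interval as a bar. The interval of Nfkbie, in red, runs from 0.44 to 1.25, and that of Tnfaip3 is the widest, from -1.59 to -0.02.

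None of the 4 subunit genes passed the test. Rela encodes the subunit that carries the main activation domain of the family and lies at chr19:5637490-5648130 of mm9 on the plus strand. It was at 48.7, 47.4 and 46.3 CPM with vehicle and at 55.9, 51.2 and 51.7 CPM with FGF19. The groups did not overlap, yet the log2 fold change of 0.16 (95% interval -0.03 to 0.34) had an adjusted p of 0.296 in edgeR's quasi-likelihood test. Nfkb1, at chr3:135247619-135354511 of mm9 on the minus strand, encodes the precursor of the subunit that most often pairs with the Rela product. Its levels were 23.7, 23.9 and 25.6 CPM with vehicle and 23.2, 25.4 and 22.4 CPM with FGF19. These ranges overlapped, and the log2 fold change was -0.04 (95% interval -0.26 to 0.17, adjusted p = 0.835 in the same edgeR test).

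Nfkb2 and Relb encode the subunits of the noncanonical pathway, in which receptors such as the lymphotoxin receptor act through the kinase encoded by Map3k14. Nfkb2, at chr19:46379227-46386580 of mm9 on the plus strand, was at 7.77, 7.58 and 8.24 CPM with vehicle and at 6.19, 6.53 and 5.25 CPM with FGF19. All FGF19 values lay under the lowest vehicle value, and the log2 fold change was -0.39 (95% interval -0.71 to -0.08, adjusted p = 0.126 in edgeR's quasi-likelihood test). Relb, at chr7:20191571-20214787 of mm9 on the minus strand, was the lowest subunit gene of the 4, at 1.43, 1.32 and 1.94 CPM with vehicle and 0.930, 1.24 and 1.18 CPM with FGF19. Here too the groups did not overlap, but the counts were between 20 and 39 and the log2 fold change of -0.48 (95% interval -1.08 to 0.11) gave 0.316 as its adjusted p by edgeR. At this depth the data do not exclude a fall of Relb to 0.473 of the vehicle level.

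The nuclear IkB proteins bind to subunits on DNA and can raise or lower transcription there. Nfkbiz, at chr16:55811490-55838754 of mm9 on the minus strand, encodes IkB zeta. It was at 5.19, 5.19 and 4.07 CPM with vehicle and 5.86, 6.11 and 4.89 CPM with FGF19. The groups overlapped through FGF19 replicate 3, and the log2 fold change was 0.22 (95% interval -0.15 to 0.60, adjusted p = 0.482 in edgeR's quasi-likelihood test). Bcl3, at chr7:20393811-20408104 of mm9 on the minus strand, was at 29.6, 20.6 and 20.2 CPM with vehicle and 17.5, 16.9 and 24.2 CPM with FGF19. The highest mouse of each group stood apart from the other two, which left the groups overlapping. Its log2 fold change was -0.27 (95% interval -0.68 to 0.15, adjusted p = 0.441 in the same edgeR test), and -0.06 without vehicle replicate 1.

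Tnfaip3, at chr10:18720717-18735216 of mm9 on the minus strand, encodes a ubiquitin-editing enzyme that shuts the pathway off upstream of the IkB kinases. It was at 3.00, 3.34 and 3.72 CPM in vehicle replicates 1, 2 and 3 and at 1.81, 3.03 and 0.905 CPM in FGF19 replicates 1, 2 and 3. FGF19 replicate 2 lay just above the lowest vehicle-treated mouse, and FGF19 replicate 3, with 20 counts, was lowest. The spread within the FGF19 group was 1.07 CPM (SD, n = 3) beside 0.361 CPM (SD, n = 3) with vehicle. The log2 fold change of -0.81 (95% interval -1.59 to -0.02) had an adjusted p of 0.205 in edgeR's quasi-likelihood test. It was -1.29 without FGF19 replicate 2 and -0.46 without FGF19 replicate 3.

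To compare the genes with each other, levels were divided by exon length and are given as RPKM. With vehicle, Nfkbia was highest at 29.9 ± 6.36 RPKM (SD, n = 3), followed by Rela at 17.5 ± 0.450, Bcl3 at 12.8 ± 2.92, Nfkbib at 12.3 ± 0.920 and Nfkb1 at 5.93 ± 0.257 RPKM (SD, n = 3 each). Lower still were Nfkb2 at 2.39 ± 0.104, Nfkbiz at 1.24 ± 0.167, Nfkbie at 1.00 ± 0.145, Tnfaip3 at 0.730 ± 0.0785 and Relb at 0.711 ± 0.149 RPKM (SD, n = 3 each). In this order the libraries of Bcl3 and Nfkbib overlapped, as did those of Nfkbiz and Nfkbie and those of Tnfaip3 and Relb, and the other neighbours were separate. With FGF19, Nfkbie was at 1.81 ± 0.164 RPKM (SD, n = 3), above Nfkbiz at 1.45 ± 0.166 RPKM (SD, n = 3) and level with Nfkb2 at 1.82 ± 0.2004 RPKM (SD, n = 3). The libraries of Nfkb2 and Nfkbie overlapped there, and so did those of Relb and Tnfaip3. The place of Nfkbib depended on the length used: without the 310 exon bases it shares with Gm6537 it was at 14.7 ± 1.09 RPKM with vehicle (SD, n = 3), above Bcl3 and still overlapping it.

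Shares of the summed RPKM within a library describe the makeup of the family independently of scaling. Among the 5 subunit genes, Rel included, Rela held 66.0%, 66.0% and 63.1% with vehicle and 70.9%, 67.2% and 70.9% with FGF19. The share of Nfkb2 was 8.86% ± 0.330 (SD, n = 3) with vehicle and 6.48% ± 0.557 (SD, n = 3) with FGF19, and for both genes the groups did not overlap. Rel, the gene of a subunit best known from lymphoid cells, held 1.49% ± 0.334 with vehicle and 1.51% ± 0.522 with FGF19 (SD, n = 3 each). Among the 3 cytoplasmic inhibitor genes, Nfkbie held 2.03%, 2.48% and 2.48% with vehicle and 3.83%, 4.14% and 3.33% with FGF19, again without overlap. Nfkbia held the largest part, 68.6% ± 5.68 with vehicle and 64.3% ± 1.27 with FGF19 (SD, n = 3 each), with overlapping groups. The shares were not tested and are given as a description, and the smallest two-sided exact permutation p for 3 mice against 3 is 0.1. With shared exon bases left out of the length, the share of Nfkbie was between 1.95% and 2.36% with vehicle and between 3.14% and 3.90% with FGF19.

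**Figure D3:**
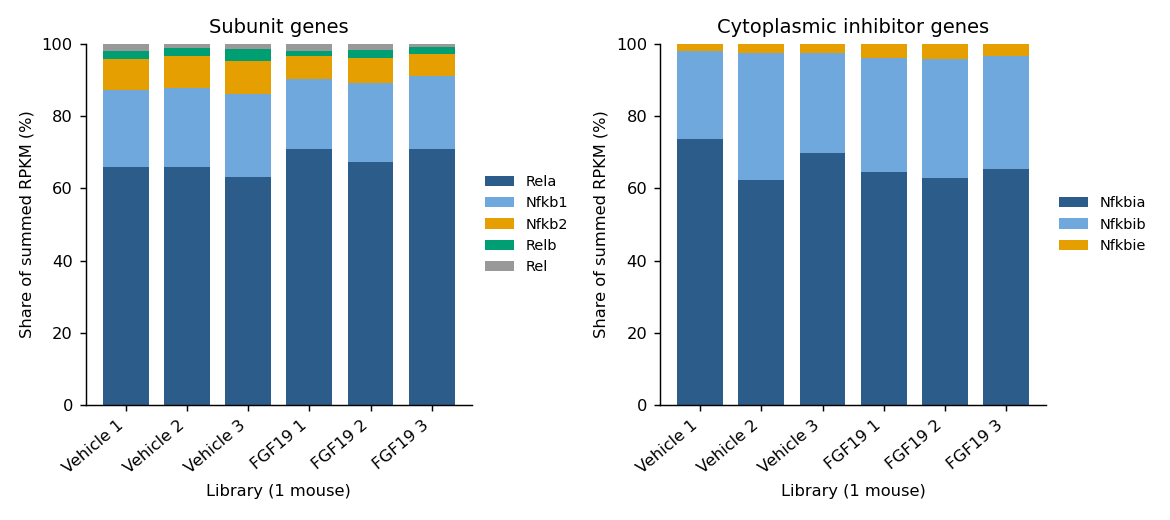
Share of each gene, in percent, in the summed RPKM of the 5 subunit genes (left) and of the 3 cytoplasmic inhibitor genes (right), with 1 bar for each liver. Rela and Nfkbia take the largest part of every bar, and Nfkbie widens from between 2.03% and 2.48% with vehicle to between 3.33% and 4.14% with FGF19.

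The promoters are shown because feedback within the family is known to run through kappaB sites, the binding motif of NF-kappaB. RefSeq promoter sequences of build GRCm38.p6 were at hand for 7 of the 10 genes, all except Nfkb1, Relb and Nfkbiz. In the 250 bases before a start site, the kappaB consensus of 10 bases was found on either strand in Nfkb2, Nfkbia, Nfkbie and Tnfaip3 and not in Rela, Nfkbib or Bcl3. Such a match was held by 7.25% of the 32851 start sites covered by RefSeq, and by 10.6% of the 9052 tested genes found there. A match is a description of letters and not a shown binding site. The sequences run 5′ to 3′ on the strand of the gene, end at the base before the start site, and carry matches in capitals. Those of Nfkbie (chr17:45555450-45555699, plus strand), Nfkbia (chr12:55492648-55492897, minus strand), Tnfaip3 (chr10:19015411-19015660, minus strand, the first of 2 start sites) and Nfkb2 (chr19:46304487-46304736, plus strand, the first of 3) are the following.
Nfkbie: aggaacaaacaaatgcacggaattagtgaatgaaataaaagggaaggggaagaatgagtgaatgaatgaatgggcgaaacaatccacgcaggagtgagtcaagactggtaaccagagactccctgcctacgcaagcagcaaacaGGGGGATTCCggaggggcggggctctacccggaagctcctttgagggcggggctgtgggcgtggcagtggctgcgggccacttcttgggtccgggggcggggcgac
Nfkbia: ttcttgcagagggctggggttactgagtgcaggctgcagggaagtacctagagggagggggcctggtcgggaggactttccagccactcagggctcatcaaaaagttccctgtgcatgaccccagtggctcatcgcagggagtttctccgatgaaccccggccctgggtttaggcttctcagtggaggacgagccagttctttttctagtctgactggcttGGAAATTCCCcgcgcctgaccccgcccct
Tnfaip3: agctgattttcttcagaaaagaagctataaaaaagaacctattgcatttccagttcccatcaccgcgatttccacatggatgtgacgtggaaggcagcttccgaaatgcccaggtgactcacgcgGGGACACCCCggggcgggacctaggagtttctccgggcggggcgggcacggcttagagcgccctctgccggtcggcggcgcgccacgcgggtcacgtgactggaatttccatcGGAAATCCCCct
Nfkb2: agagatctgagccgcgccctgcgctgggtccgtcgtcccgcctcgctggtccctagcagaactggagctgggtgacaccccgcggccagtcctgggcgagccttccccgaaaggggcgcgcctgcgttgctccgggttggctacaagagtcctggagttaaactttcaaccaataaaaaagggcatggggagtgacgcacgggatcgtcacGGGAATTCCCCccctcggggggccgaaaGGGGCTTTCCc

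The match in Nfkbie, the gene that rose, lies between bases -106 and -97 from the start. In Nfkbia, whose levels overlapped between the groups, the match lies closer, between bases -29 and -20. Tnfaip3, with a log2 fold change of -0.81 that did not pass the test, has matches at bases -125 to -116 and -12 to -3. Nfkb2, at -0.39 and also not called, has overlapping matches at bases -39 to -30 and -38 to -29 and another at -11 to -2 of its first start site, and 1 match each before the second, at -236 to -227, and the third, at -225 to -216. The 4 genes with a match thus took in the highest and the lowest log2 fold change of the family.

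Upstream of the family stand receptors and their adaptors, of which 33 were listed and 28 tested. The lists of receptors, regulators and target genes were chosen with earlier results of these data known, so their counts are a description. At an adjusted p under 0.05 by the edgeR quasi-likelihood method, 4 of the 28 rose and 1 fell, beside 4.56% and 2.84% of all genes, with a median log2 fold change of 0.33. The count of 4 became 9 without FGF19 replicate 3 and 7 with the likelihood ratio or exact test. Of these 28, 25 had a positive log2 fold change, beside 6268 of 12559 genes in all. The largest rise was that of Irak3, the gene of a pseudokinase that restrains Toll-like and interleukin-1 receptor signals, at chr10:119578710-119638593 of mm9. It was at 0.858, 1.22 and 0.844 CPM with vehicle and at 6.79, 7.17 and 5.03 CPM with FGF19. No vehicle-treated mouse came near the FGF19 range, and the rise was 6.50-fold (log2 fold change 2.70, standard error 0.23, adjusted p = 0.000252 in edgeR's quasi-likelihood test).

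Cd14 and Lbp, which encode proteins that capture bacterial lipopolysaccharide for its receptor, rose too. Cd14 was at 2.61 ± 0.395 CPM with vehicle and 6.92 ± 1.26 CPM with FGF19 (SD, n = 3 each, log2 fold change 1.41, edgeR adjusted p = 0.00300). Lbp, a plasma protein gene of hepatocytes, was at 229 ± 23.9 and 421 ± 19.8 CPM (SD, n = 3 each, log2 fold change 0.88, edgeR adjusted p = 0.00108). Irak2, a kinase gene of the same receptors, rose from 27.2 ± 2.57 to 43.7 ± 7.17 CPM (SD, n = 3 each, log2 fold change 0.68, edgeR adjusted p = 0.0140), and its adjusted p was 0.0572 without vehicle replicate 1. Il1rap, the accessory chain of the interleukin-1 receptor, fell from 201 ± 6.49 to 160 ± 7.07 CPM (SD, n = 3 each, log2 fold change -0.33, edgeR adjusted p = 0.0388). This fall was no longer called when any library other than FGF19 replicate 3 was left out, when edgeR gave adjusted p of 0.0940 to 0.132.

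The receptor genes Tlr4, Tnfrsf1a and Il1r1 and the adaptor gene Myd88 were not called. Tnfrsf1a, the main receptor gene for tumour necrosis factor, was at 84.6, 88.9 and 82.7 CPM with vehicle and 104, 100.4 and 118 CPM with FGF19. Its groups did not overlap, with a log2 fold change of 0.33 and an adjusted p of 0.0599 in edgeR's quasi-likelihood test. With DESeq2, without TMM scaling, with the likelihood ratio or exact test or without FGF19 replicate 3, Tnfrsf1a was called. Tlr4 (log2 fold change 0.41, 95% interval -0.30 to 1.12), Il1r1 (0.39, -0.39 to 1.18) and Myd88 (0.26, -0.07 to 0.59) each had overlapping groups. The levels of Il1r1 varied most within a group, from 26.7 to 76.5 CPM with vehicle, and without vehicle replicate 2 its log2 fold change was 1.01 (edgeR adjusted p = 0.0269).

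**Figure D4:**
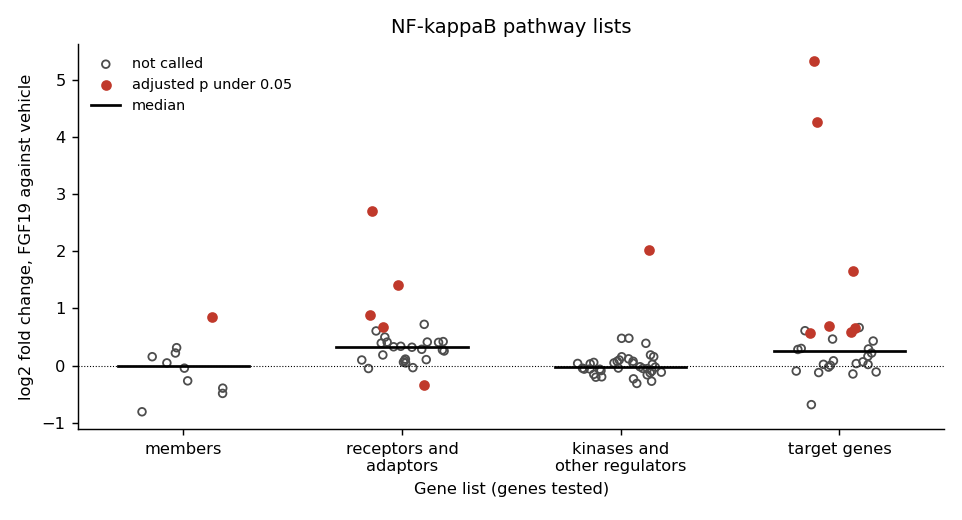
Log2 fold change of FGF19 against vehicle for the tested genes of the NF-kappaB family and of 3 lists around it, with 1 point for each gene, called genes filled in red and a line at the median. The medians are 0.0025 for the 10 family genes, 0.33 for receptors and adaptors, -0.03 for kinases and other regulators and 0.25 for target genes.

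Among kinases, ubiquitin enzymes and other regulators, 37 of 39 listed genes were tested. Only Ikbke rose and none fell at an adjusted p under 0.05 by the edgeR quasi-likelihood method, beside the same 4.56% and 2.84% of all genes. At an unadjusted p under 0.05, 4 of the 37 were higher and 2 lower, beside 11.6% and 11.3% of all genes, and DESeq2 and limma-voom called 0 lower. Without FGF19 replicate 3, 2 were higher. The median log2 fold change of this list was -0.03. Ikbke encodes a kinase related to the IkB kinases that is best known from the induction of interferons and lies at chr1:133151179-133176140 of mm9. It was at 15.6, 22.7 and 18.8 CPM with vehicle and 82.4, 78.7 and 70.2 CPM with FGF19. The FGF19 range lay far above that of vehicle, a 4.06-fold rise (log2 fold change 2.02, standard error 0.14, adjusted p = 6.47e-05 in edgeR's quasi-likelihood test).

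The 3 genes of the classical IkB kinase complex did not pass the test. Chuk was at 100.7 ± 7.37 CPM with vehicle and 97.7 ± 18.5 CPM with FGF19 (SD, n = 3 each, log2 fold change -0.04, 95% interval -0.35 to 0.26). Ikbkb was at 50.8 ± 3.86 and 53.6 ± 2.32 CPM (SD, n = 3 each, log2 fold change 0.08, 95% interval -0.12 to 0.28). Ikbkg, the regulatory subunit gene, was at 77.6, 61.9 and 68.2 CPM with vehicle and at 52.3, 60.0 and 59.7 CPM with FGF19, without overlap (log2 fold change -0.27, edgeR adjusted p = 0.160). Map3k14, the kinase gene of the noncanonical pathway, was at 3.54 ± 0.392 and 4.94 ± 0.849 CPM (SD, n = 3 each, log2 fold change 0.48, edgeR adjusted p = 0.152), also without overlap. The subunit gene Rel was between 0.634 and 1.396 CPM in the 6 livers, with overlapping groups (log2 fold change 0.08, 95% interval -0.71 to 0.87).

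Of 40 genes known as NF-kappaB targets in various cells, 28 passed the filter. Of these, 7 rose (Cxcl9, Ccl5, Il1rn, Cfb, Vcam1, C3 and Sod2) and 0 fell at an adjusted p under 0.05 by the edgeR quasi-likelihood method. DESeq2 and limma-voom also gave 0 lower and the likelihood ratio test 1. At an unadjusted p under 0.05 in the quasi-likelihood test, 9 of the 28 were higher and 1 lower. The shares over all genes were 4.56% higher and 2.84% lower at the adjusted threshold, and 11.6% higher and 11.3% lower at the unadjusted one. The median log2 fold change was 0.25, and 22 of the 28 genes had a positive value. The groups did not overlap in 11 of the 28, all higher, beside 14.5% of all genes, and 0 were lower without overlap, beside 13.8%. Several of the 7 also respond to interferon or interleukin-6, so the list is not specific to NF-kappaB. Cxcl9, a T cell chemokine gene best known as a target of interferon gamma, was at 4.10, 7.10 and 6.21 CPM with vehicle and 231, 343 and 119 CPM with FGF19. All FGF19-treated mice were far above vehicle, with the lowest in FGF19 replicate 3 (log2 fold change 5.32, standard error 0.39, edgeR adjusted p = 0.000126).

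Ccl5, another chemokine gene, rose from 0.719 ± 0.0897 to 13.9 ± 1.07 CPM (SD, n = 3 each, log2 fold change 4.27, edgeR adjusted p = 2.09e-06). Il1rn, the interleukin-1 receptor antagonist gene, rose from 4.58 ± 1.08 to 14.4 ± 2.66 CPM (SD, n = 3 each, log2 fold change 1.66, edgeR adjusted p = 0.00171). Cfb, the gene of complement factor B, rose from 1096 ± 44.4 to 1771 ± 71.8 CPM (SD, n = 3 each, log2 fold change 0.69, edgeR adjusted p = 0.00195). Vcam1, C3 and Sod2, which were named after their values were seen, had log2 fold changes of 0.66, 0.58 and 0.57 (edgeR adjusted p = 0.0252, 0.0280 and 0.00412). Vcam1 was not called without vehicle replicate 1 or 3 or FGF19 replicate 2 (adjusted p = 0.0798, 0.114 and 0.0953 in the same test), and C3 was called in 1 of the 6 such fits, the one without FGF19 replicate 3 (adjusted p between 0.00350 and 0.117 over the 6).

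**Figure D5:**
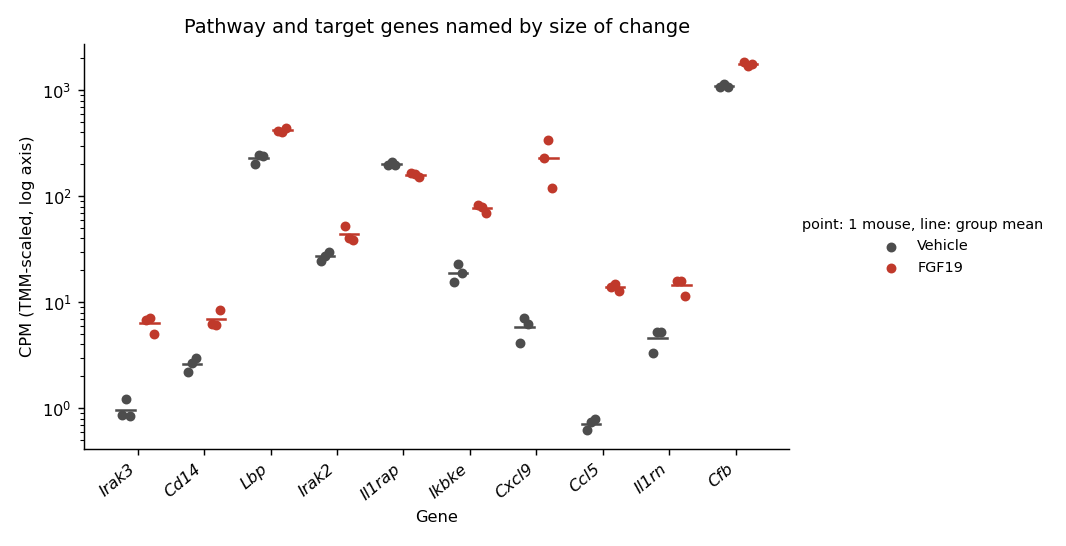
Level of the upstream, regulator and target genes with the largest called changes in every liver, in CPM on a log axis, with 1 point for each mouse and a line at the group mean. In each gene the groups are separate, with Cxcl9 going from between 4.10 and 7.10 CPM with vehicle to between 119 and 343 CPM with FGF19, and Il1rap alone lower.

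The 12 target genes that did not pass the filter included Tnf, Il6, Ccl2, Cxcl2, Nos2 and Ptgs2, and were between 0 and 0.551 CPM in every library. These genes were not tested.

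Markers of other liver cells moved in part with the groups. Kupffer cell markers summed to between 189 and 236 CPM with vehicle and between 196 and 230 CPM with FGF19, with 2 of 8 higher (Marco and Cd68) and 0 lower in edgeR's quasi-likelihood test, beside 4.56% and 2.84% of all genes. Vsig4, on the same list, had a log2 fold change of -0.54 without overlap between the groups (edgeR adjusted p = 0.0755), Emr1 (Adgre1) was at 0.36, also without overlap (edgeR adjusted p = 0.155), and Clec4f and Cd5l, with overlapping groups, were at -0.29 and -0.22. The 7 neutrophil markers found summed to between 2.76 and 4.82 CPM with vehicle and between 10.8 and 13.6 CPM with FGF19, with 2 of 4 tested higher (S100a9 and Itgam, the latter also expressed by macrophages). Both passed the filter on low counts through the FGF19 group, with between 4 and 21 counts in the vehicle libraries, so that this count of tested markers is partly set by the filter. The 6 monocyte markers summed to between 4.57 and 6.78 CPM and between 8.15 and 12.5 CPM, with 0 of 3 tested called. Uncalled markers that were higher without overlap were Ccr2 and Plac8 of monocytes (log2 fold changes 1.03 and 0.70, edgeR adjusted p = 0.0537 and 0.0960), Csf3r of neutrophils (0.82, 0.0773) and Cd3e of lymphocytes (0.75, 0.273). Cd3e, with between 7 and 10 counts in the vehicle libraries, also passed the filter through the FGF19 group. Lymphocyte markers summed to between 9.58 and 13.6 CPM with vehicle and between 8.87 and 15.1 CPM with FGF19, with 0 of 7 tested called. Of the 7 sinusoidal endothelial markers Cdh5 was higher (log2 fold change 0.43, edgeR adjusted p = 0.0275), while Clec4g was at -0.38 without overlap between the groups (edgeR adjusted p = 0.0736). Of the others, 0 of 7 stellate cell, 0 of 5 cholangiocyte and 0 of 8 hepatocyte markers were called. Among these, the groups did not overlap for Hnf4a and Cps1 of hepatocytes (log2 fold changes -0.31 and -0.35, edgeR adjusted p = 0.120 and 0.125) and for Reln of stellate cells (-0.46, edgeR adjusted p = 0.0984). No marker on these lists was at 0 in every library. The part of these cells in the level of Nfkbie or of the pathway genes was not tested.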

How the data were processed

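Total liver RNA was sequenced as paired reads of 100 bases. Per the file headers, the authors counted reads on exons of an mm9 annotation with featureCounts 1.5.2, without strand, with mates as separate reads and without reads that align to several places, so overlapping genes or near-identical copies lose reads. The deposited count of each gene is raw. The submitters' processing notes name Trimmomatic 0.36 and STAR 2.5.3a, and the paper names other versions of STAR. The authors' table of their own comparison (log2 fold change, log2 CPM, p-value and FDR) was not used.

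Counts were filtered with filterByExpr, scaled by TMM and tested in R 4.3.3 with edgeR 4.0.16 (quasi-likelihood test, no covariates, 3 against 3 mice, Benjamini-Hochberg adjustment over 12559 genes). Intervals are 95% intervals from the same fit. The code was tested on simulated data. Alternatives were DESeq2 1.42.0, limma-voom (limma 3.58.1), other edgeR tests, scalings and filters, a replicate block and each library left out in turn. The members and lists were chosen with earlier results of these data known. Besides the members and 9 genes fixed by name, genes were named as the 4 largest rises and 2 largest falls of each list among called genes whose groups did not overlap and whose mean reached 1 CPM. Otulin, Adgre1 and Chil3 were found under older symbols, and Ly6g was not matched. kappaB matches were searched on both strands in RefSeq promoters, which cover 9052 of the genes tested. No 2 libraries agreed within sampling noise (chi-square per degree of freedom between 8.69 and 106).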

Additional observations from a re-analysis of the deposited data

How the results depend on the processing

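Over the 14 alternative fits, 131 of the 138 values for the 10 NF-kappaB genes kept their direction and their side of an adjusted p of 0.05. The exceptions were 6 fits in which Nfkbie was no longer called and 1 in which Nfkbia, never called, turned to -0.12 (without vehicle replicate 2, in a range of -0.12 to 0.16 with a library left out). Nfkbie kept a log2 fold change between 0.77 and 0.97, and its adjusted p was between 0.000865 and 0.0980. The count of higher NF-kappaB genes was 0 with the replicate block, between 0 and 1 with each library left out, and 2 at an unadjusted p under 0.01. For receptors and adaptors the higher count of 4 became 7 with the likelihood ratio test, the exact test or an unadjusted p under 0.01, and between 3 and 9 (without FGF19 replicate 3) with a library left out, and the lower count of 1 became 0 with the replicate block and between 0 and 1 with a library left out. The count of higher kinases and regulators was between 1 and 2 (without FGF19 replicate 3, where Birc3 joined Ikbke), and the likelihood ratio test gave 1 lower target gene, Gadd45b. Uncalled genes that changed sign were Rel, between -0.12 and 0.36, and Chuk, between -0.12 and 0.11, over the fits with a library left out. With the replicate block, the adjusted p was 0.0693 for Nfkbie, 0.131 for Il1rap and 0.0630 for C3, none of them then called. Why Nfkbie lost its call was not tested.

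Over all genes, the 573 higher and 357 lower genes became 370 and 164 with the replicate block, 579 lower with the likelihood ratio test, 566 lower with the exact test and 626 lower at an unadjusted p under 0.01. With each library left out, there were between 236 and 1015 higher and between 91 and 926 lower genes, the largest numbers without FGF19 replicate 3. The replicate numbers did not pair the mice, since deviations from the group means correlated with r of -0.06, -0.26 and -0.23 between mice of the same number, and no mouse correlated best with its own number. The cause of these shifts was not tested. Relb, Tnfaip3, Irak3, Ccl5, Tlr4 and Rel were not tested when every library had to reach 1 CPM. Of the 10 NF-kappaB genes, Relb, Tnfaip3 and Nfkbie had the lowest counts on average. With shared exon bases left out of the length, an alternative chosen after seeing the data, Nfkbib moved to 14.7 RPKM with vehicle and 18.2 with FGF19, and with FGF19 the inhibitor shares of Nfkbia and Nfkbib moved to 60.6% and 35.8%.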
